A study of Mus musculus with 6 samples.

Results

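Pla1a and 8 further genes of extracellular and lysosomal lipid breakdown were examined in endothelial cells of the mouse spleen: the relatives of Pla1a in the lipase family (Lpl, Lipg, Lipc and Liph), the acid lipase gene Lipa, and 3 genes whose proteins anchor, mature or inhibit lipoprotein lipase (Gpihbp1, Lmf1 and Angptl4). They were taken by symbol from the deposited table, and all 9 were found among its 23337 genes. Pla1a was selected on its RPKM (reads scaled to gene length and library size) in these same libraries, where the genotypes stood far apart, so its difference is given as a description with no test, and the other genes were added for their family or function. Cells positive for CD31 and negative for CD45 had been sorted from digested spleens of Stab1-/- mice (KO; libraries KO 2, KO 3 and KO 4) and of wild-type mice (WT; libraries WT 1, WT 3 and WT 4), all of the C57BL/6 strain and labelled as blood endothelial cells. Stab1 encodes stabilin-1, or Clever-1, a scavenger receptor of sinusoidal endothelium, and the study asked about contacts of the spleen vasculature with lymphocytes. The labels give neither the age of the mice nor whether each library is 1 animal, so every p-value given reflects spread among these libraries alone, which may be technical.

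Phospholipase A1 member A, the product of Pla1a, is a secreted enzyme that removes 1 fatty acid from phosphatidylserine and leaves lysophosphatidylserine, a lipid that signals through receptors of immune cells. It is of the same family as lipoprotein lipase, endothelial lipase and hepatic lipase, which act on lipoproteins at the vessel wall. Lipoprotein lipase is made by parenchymal cells, folded with the help of lipase maturation factor, carried across capillary endothelium by the anchor GPIHBP1 and inactivated by ANGPTL4, while lysosomal acid lipase breaks down cholesteryl esters and triglycerides after uptake.

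The coding stretch around the active-site serine can be set side by side for these genes. It is printed for Pla1a, for 3 relatives and for Lipa, which is not of that family, from GENCODE M21 transcripts on GRCm38, each 45 bases on the coding strand, with the 5 codons of the serine motif in capitals. The stretch lies in exon 4 of 11 in Pla1a (chr16:38414812-38414856, minus strand), exon 3 of 10 in Liph (chr16:21981379-21981423, minus strand), exon 4 of 10 in Lpl (chr8:68894651-68894695, plus strand), exon 4 of 9 in Lipc (chr9:70818898-70818942, minus strand), and is split over exons 5 and 6 of 10 in Lipa (chr19:34507141-34509028, minus strand).
Pla1a: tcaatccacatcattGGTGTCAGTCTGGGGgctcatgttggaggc
Liph: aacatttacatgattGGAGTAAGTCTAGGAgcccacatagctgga
Lpl: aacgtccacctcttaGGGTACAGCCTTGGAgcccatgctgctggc
Lipc: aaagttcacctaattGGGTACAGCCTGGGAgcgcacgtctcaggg
Lipa: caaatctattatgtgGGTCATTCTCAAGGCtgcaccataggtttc
Liph, Lpl and Lipc each shared 28 of the 45 bases with Pla1a, and Lipa shared 17. These counts do not order the 3 relatives. Each stretch was placed by its serine motif, so part of the sharing was fixed in advance.

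The 6 libraries held 37651759 to 48627059 reads counted to genes, as recovered from the deposited RPKM. Stab1 itself, the deleted gene, had 2.32, 2.62 and 2.49 RPKM in the KO libraries and 21.6, 43.6 and 31.4 RPKM in the WT libraries, as the labels have it. Here and throughout, values of single libraries are in the order KO 2, KO 3, KO 4 and WT 1, WT 3, WT 4. Endothelial markers (7 genes, Pecam1 among them and Egfl7 the most abundant) summed to 1959 to 2276 RPKM in KO libraries and 1700 to 2089 RPKM in WT libraries. Platelet markers (9 genes) summed to 57.0 to 75.7 RPKM in KO and 90.1 to 248 RPKM in WT, leukocyte markers (4 genes, Ptprc among them) to 2.58 to 3.05 and 4.31 to 9.74, and macrophage markers (11 genes) to 95.02 to 124 and 109 to 146. Adipocyte markers (6 genes) summed to 109 to 125 RPKM in KO and 116 to 232 RPKM in WT, nearly all of it Fabp4, which capillary endothelium also expresses. Of that list Plin1, Lep and Cidec, and of the exocrine pancreas markers, Pnlip, Pnliprp1, Prss2, Amy2a5 and Cel, were listed at 0 in every library. In bulk samples such as these, fewer cells of a type and less RNA per cell cannot be told apart.

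Pla1a (gene ID 85031, chromosome 16, 38396117 to 38433191, GRCm38) was one of the more abundant genes of wild-type spleen endothelium and ranked lower in the knockout. It was at 10.6, 9.45 and 11.1 RPKM in the KO libraries, against 75.4, 80.0 and 90.3 RPKM in the WT libraries, from 894 to 1045 reads and 6205 to 8140 reads. Every KO library lay far below every WT library, and within either genotype the highest library exceeded the lowest by a factor of 1.17 in KO and 1.20 in WT. Mean levels were 10.4 ± 0.850 RPKM in KO and 81.9 ± 7.63 RPKM in WT (SD, n = 3 each), so that the KO mean was 0.127 times the WT mean, and the difference was -2.92 ± 0.11 (SE) on the log2(RPKM + 0.5) scale, KO minus WT. The authors' deposited table gives a log2 fold change of -2.98 for the gene. Among all genes of a library, Pla1a stood above 73.8% to 75.7% of them in KO and above 94.5% to 95.6% in WT. As a share of all reads, it took 0.00195% to 0.00234% in KO and 0.0165% to 0.0192% in WT. For scale, 1.2% of the genes tested were at least 2-fold lower in KO on the log2 scale. No other annotated gene overlaps it.

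Markers of splenic sinusoidal endothelium (7 genes) also summed lower in KO, to 924, 902 and 1086 RPKM in the KO libraries, against 1723, 2125 and 1865 RPKM in the WT libraries. The difference in the sum lay almost wholly in 1 gene, Clec4g, a sinusoidal lectin gene, with 662, 618 and 815 RPKM in KO and 1541, 1797 and 1612 RPKM in WT (log2 fold change -1.25, adjusted p = 0.00106 in limma), whereas Stab2, the gene of the related receptor stabilin-2, averaged 174 RPKM in KO and 167 RPKM in WT (adjusted p = 0.806). The part of the sinusoidal share of the sorted cells in the difference of Pla1a was not tested.

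The sums of platelet and leukocyte markers given above did not overlap either and were lower in KO. Pf4, the platelet chemokine gene, was at 18.4, 15.4 and 19.2 RPKM in the KO libraries, against 52.3, 88.4 and 36.3 RPKM in the WT libraries (log2 fold change -1.62, adjusted p = 0.0160 in limma, 0.0772 without KO 3 and 0.109 with low genes, those under 1 RPKM in most libraries, kept in the fit). Pf4 and Pla1a were each lower in every KO library than in every WT library. Among all genes tested, 20.3% had genotypes that did not overlap, in either direction. Of the 9 platelet markers, 9 had a negative log2 fold change and 3 had genotypes that did not overlap. The order of Pf4 and of Pla1a among the WT libraries differed, from which nothing can be drawn with 3 libraries. The part of such cells in the difference of Pla1a was not tested.

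Pla1a was the most abundant gene of its family in every library, and Lpl made up nearly all of the rest. Summed over Pla1a, Lpl, Lipg, Lipc and Liph, the family came to 14.4, 12.4 and 15.8 RPKM in the KO libraries, against 82.3, 82.9 and 95.3 RPKM in the WT libraries. Pla1a made up 70.3% to 76.5% of that sum in KO and 91.6% to 96.5% in WT.

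Lpl, the lipoprotein lipase gene (gene ID 16956, chromosome 8, 68880555 to 68906932), was the only relative detected above 1 RPKM. It was at 3.52, 2.80 and 4.58 RPKM in the KO libraries, against 6.88, 2.66 and 4.93 RPKM in the WT libraries, from 544 to 1162 reads. The genotypes overlapped, and the WT libraries alone differed by a factor of 2.59. The difference was -0.30 ± 0.30 (SE) in log2 (adjusted p = 0.632 in limma), and its 95% interval from -0.97 to 0.36 spans 0.511 to 1.29 times the WT level. WT 1, highest in Lpl, was also the highest in summed reticular and fibroblast markers, at 218 RPKM against 41.2 in WT 3 and 74.7 in WT 4, while the KO libraries had 85.9, 59.5 and 55.2. WT 1 was the highest of all libraries also in the sums of smooth muscle and pericyte markers (585, 628 and 545 RPKM in KO, and 726, 550 and 503 RPKM in WT), of mesothelium markers (1.91 to 5.49 in KO, and 12.8, 1.06 and 6.65 in WT), of erythroid markers (90.7, 36.4 and 18.7 in KO, and 122, 89.9 and 34.5 in WT), of exocrine pancreas markers (0.516 to 0.709 in KO, and 1.85, 1.56 and 0.806 in WT) and of adipocyte markers (123, 125 and 109 in KO, and 232, 116 and 118 in WT). KO 4, the KO library highest in Lpl, was the lowest KO library in reticular and fibroblast, smooth muscle and pericyte, and mesothelium sums. Its erythroid and adipocyte sums were the lowest of KO too, and its exocrine pancreas sum lay between those of KO 2 and KO 3. Without WT 1 the log2 fold change of Lpl was -0.025. The adipocyte sum was nearly all Fabp4, as said above, so it does not mark adipocytes alone. The part of cells other than endothelium in the level of Lpl was not tested.

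The other relatives were at the limit of detection. Lipg, which encodes endothelial lipase, had 13, 18 and 8 reads in the KO libraries, against 4, 24 and 4 reads in the WT libraries, and its highest library was at 0.125 RPKM. Lipc, the hepatic lipase gene, had 2, 0 and 5 reads in the KO libraries and 2, 14 and 1 reads in the WT libraries. Liph, whose product makes lysophosphatidic acid from phosphatidic acid, had 21, 2 and 0 reads in KO and 4, 0 and 10 reads in WT. A count of 0 allows up to 3 reads, or 0.0307 RPKM for Lipc in KO 3 and 0.0193 and 0.0156 RPKM for Liph in KO 4 and WT 3, counting error only. These 3 genes were below the filter on low values, and with no such filter 0 of the 8 genes other than Pla1a were called. The remaining family genes Lipi, Pnlip, Pnliprp1 and Pnliprp2 were listed at 0 in every library.

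**Figure D1:**
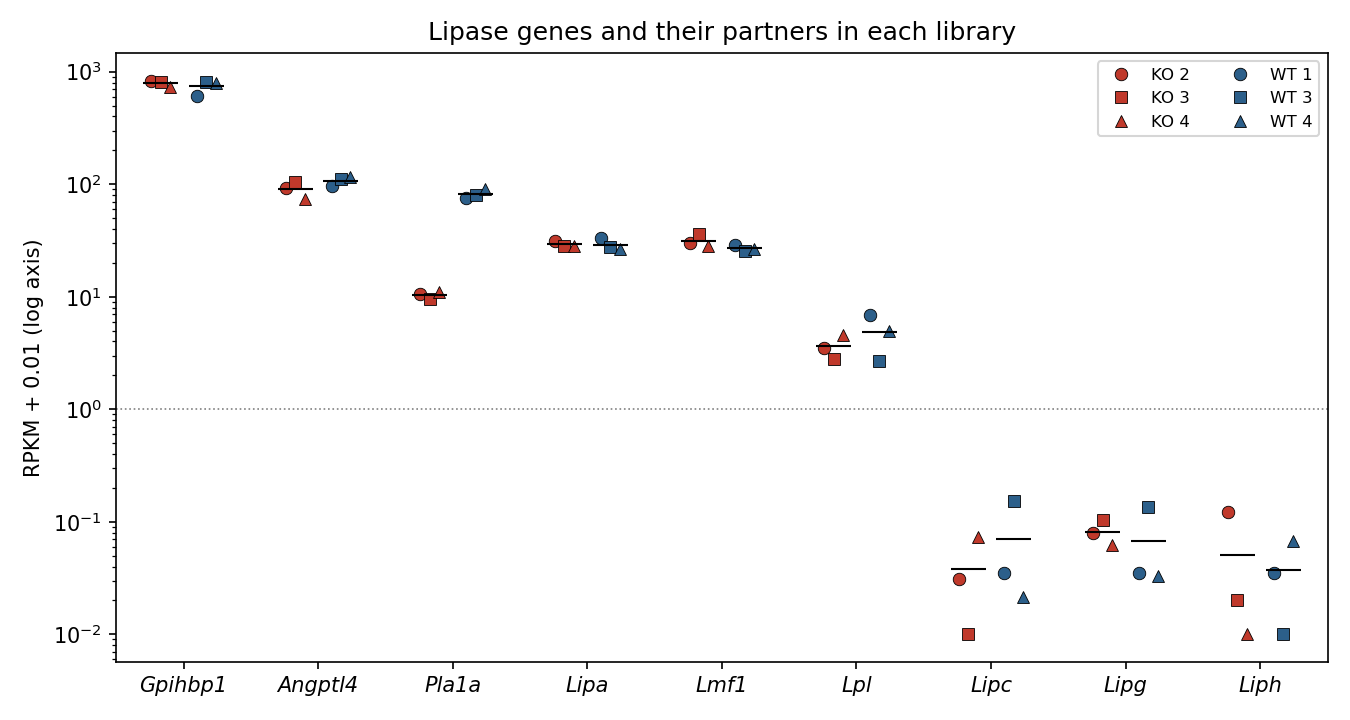
RPKM of the 9 genes in each library, on a log axis after adding 0.01 so that values of 0 can be drawn. Red points are KO libraries and blue points WT libraries, bars are group means, and the dotted line marks 1 RPKM. Pla1a is the only gene whose KO points (9.45 to 11.1 RPKM) and WT points (75.4 to 90.3 RPKM) are apart, and Lipc, Lipg and Liph lie below 0.2 RPKM throughout.

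Lipa, the gene of lysosomal acid lipase (gene ID 16889, chromosome 19, 34492316 to 34527474), was even across the libraries. It was at 31.3, 28.3 and 28.4 RPKM in the KO libraries, against 33.0, 27.7 and 26.5 RPKM in the WT libraries, with overlapping genotypes. The log2 fold change was 0.02 ± 0.12 (SE, adjusted p = 0.958 in limma), and its 95% interval of -0.25 to 0.28 limits a change to between 0.843 and 1.21 times the WT level. Set against this gene within each library, Pla1a was at 0.334 to 0.391 times the level of Lipa in KO and at 2.28 to 3.40 times its level in WT.

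Gpihbp1, the anchor of lipoprotein lipase (gene ID 68453, chromosome 15, 75596630 to 75598213), was by far the most abundant of the 9 and ranked 43rd to 73rd among all genes of a library. It was at 832, 813 and 736 RPKM in the KO libraries, against 613, 808 and 801 RPKM in the WT libraries. The genotypes overlapped, with WT 1 alone low. The log2 fold change was 0.11 ± 0.12 (SE, adjusted p = 0.681 in limma, 95% interval -0.16 to 0.38). Its level exceeded that of its ligand Lpl, per length, by a factor of 161 to 290 in KO libraries and 89.0 to 304 in WT libraries.

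Lmf1, the maturation factor that lipases need to fold in the endoplasmic reticulum (gene ID 76483, chromosome 17, 25579174 to 25662831), was at 29.8, 36.45 and 28.2 RPKM in the KO libraries, against 29.0, 25.3 and 26.4 RPKM in the WT libraries. KO 3 stood above the other libraries, and the genotypes overlapped. The log2 fold change was 0.22 ± 0.12 (SE, adjusted p = 0.421 in limma, 95% interval -0.061 to 0.50).

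Angptl4, the secreted inhibitor of lipoprotein lipase (gene ID 57875, chromosome 17, 33774900 to 33781575), was at 92.3, 105 and 74.45 RPKM in the KO libraries, against 95.6, 110.5 and 116.5 RPKM in the WT libraries. KO 4 was the lowest library and KO 3 lay within the WT range. The log2 fold change was -0.25 ± 0.13 (SE, adjusted p = 0.387 in limma, 95% interval -0.56 to 0.046). Pla1a had been close to Angptl4 in the wild type, at 0.724 to 0.788 times its level, and was at 0.0899 to 0.149 times its level in the knockout.

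**Figure D2:**
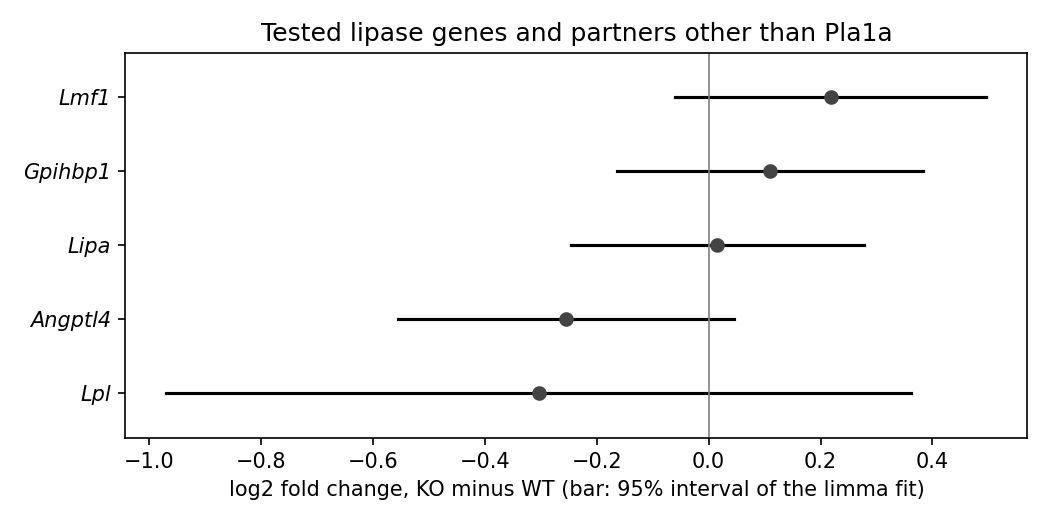
Log2 fold change, KO minus WT on the log2(RPKM + 0.5) scale, of the 5 tested genes other than Pla1a, with 95% intervals of the limma fit over 3 libraries a group. All 5 intervals include 0, from Lpl, the widest (-0.97 to 0.36), to Lipa (-0.25 to 0.28).

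Taking the genes together, 6 of the 9 reached the filter of 1 RPKM in at least 3 libraries. Of the 5 other than Pla1a, 0 passed an adjusted p of 0.05 in limma, 0 had an unadjusted p under 0.05 and 0 passed in voom on recovered reads, where, of the 11035 genes tested in limma, 1.94% passed (0.671% higher and 1.27% lower in KO) and 15.7% had an unadjusted p under 0.05, and 2.01% passed in voom. The authors' deposited table gives adjusted p-values from 0.423 for Angptl4 to 0.952 for Lipa for these 5. Their genotypes overlapped in 5 of 5 cases, while 20.3% of all genes tested had genotypes that did not overlap. The median log2 fold change of these 5 was 0.015 and that of all genes tested 0.026. In order of mean level, the KO libraries ran Gpihbp1, Angptl4, Lmf1, Lipa, Pla1a and Lpl, and the WT libraries Gpihbp1, Angptl4, Pla1a, Lipa, Lmf1 and Lpl, with Lipg, Liph and Lipc last in KO and Lipc, Lipg and Liph last in WT, all near 0. Ranges of neighbours in that order overlapped for Lmf1 and Lipa and among the 3 lowest genes, in KO as in WT.

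The wider chemistry of lysophospholipids was measured next. In the list of lysophosphatidylserine and lysophosphatidic acid genes, 1 of 13 tested rose and 0 fell, beside 0.671% higher and 1.27% lower among all genes tested, with a median log2 fold change of 0.019. Of the 13, 7 had an unadjusted p under 0.05, beside 15.7% of all genes tested, and 6 of these 7 did not pass adjustment: Abhd16a and Mboat2 with a higher mean in KO, and Enpp2, Lpar1, Ppap2a and Ppap2c with a lower one. The gene that rose was Abhd6, which encodes a membrane hydrolase of monoacylglycerols and lysophospholipids. It was at 107, 103 and 106 RPKM in the KO libraries, against 73.7, 70.3 and 74.7 RPKM in the WT libraries, with no overlap (log2 fold change 0.53 ± 0.084 SE, adjusted p = 0.0146 in limma). Leaving out WT 4, KO 2 or KO 3 ended the call (adjusted p = 0.0551, 0.0984 and 0.0761). Abhd16a, whose product makes lysophosphatidylserine inside cells, averaged 152.5 ± 6.08 RPKM in KO and 130 ± 11.3 RPKM in WT, and Abhd12, whose product degrades it, 58.0 ± 2.70 RPKM in KO and 52.7 ± 0.401 RPKM in WT (SD, n = 3 each), and neither passed (adjusted p = 0.268 and 0.475 in limma) although the libraries of each did not overlap between genotypes. Receptors of lysophosphatidylserine were near or below 1 RPKM. Gpr34 averaged 0.0475 in KO and 0.129 in WT, P2ry10 was listed at 0 in KO and averaged 0.0122 in WT, Gpr174 was listed at 0 in KO and averaged 0.0401 in WT, and P2ry10b averaged 1.11 in KO and 0.925 in WT (adjusted p = 0.774 in limma). The most abundant gene of the list was Plpp1, a lipid phosphatase gene listed as Ppap2a, at 338 to 358 RPKM in KO and 366 to 442 RPKM in WT.

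Among phospholipases A and B, 1 of 13 tested genes fell and 0 rose, beside 1.27% lower and 0.671% higher among all genes tested (3 of the 13 at an unadjusted p under 0.05, median log2 fold change 9.48e-05). This was Pla2g7, the gene of platelet-activating factor acetylhydrolase, which also had the highest mean of the list over all libraries. It was at 63.0, 53.3 and 76.1 RPKM in the KO libraries, against 122, 117 and 171 RPKM in the WT libraries (log2 fold change -1.08 ± 0.17 SE, adjusted p = 0.0133 in limma, 0.0615 without KO 3 and 0.0887 with low genes kept). The genotypes did not overlap. The platelet and leukocyte sums given above were lower in KO too. The macrophage sums overlapped, but all 4 tested macrophage and monocyte markers were lower in KO (median log2 fold change -0.40). Of these 4, 2 had an unadjusted p under 0.05 in limma and 0 passed adjustment. The part of such cells in the difference of Pla2g7 was not tested. Pla2g5, a secreted phospholipase A2 gene named after its values were seen, was at 88.5 ± 4.93 RPKM in KO and 78.9 ± 3.13 RPKM in WT (adjusted p = 0.404).

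Genes that act on lipoprotein lipase itself gave 0 calls of 8 tested in limma (1 at an unadjusted p under 0.05, median log2 fold change 0.16) and 1 in voom. The gene called in voom was Pcsk5, a proprotein convertase gene, named here after its values were seen, at 9.27 ± 0.362 RPKM in KO and 14.2 ± 1.37 RPKM in WT (SD, n = 3 each, adjusted p = 0.0552 in limma and 0.0274 in voom). Apoc2, the gene of the activator of lipoprotein lipase, and Apoa5 were listed at 0 in every library. Acid lipase and lysosomal genes gave 0 calls of 11 tested (0 at an unadjusted p under 0.05, and 0 in voom, median 0.12), with Asah1, the acid ceramidase gene, the most abundant at 172 to 203 RPKM in KO and 162 to 205 RPKM in WT. Lipn and Lipk, acid lipase relatives known from epidermis, were at 16.1 to 23.9 and 5.44 to 7.11 RPKM in KO, against 11.6 to 24.0 and 5.04 to 5.74 RPKM in WT. Intracellular neutral lipid hydrolysis gave 0 calls of 10 tested (0 at an unadjusted p under 0.05, and 0 in voom, median 0.020), led in level by Mgll, the monoacylglycerol lipase gene, at 216 to 282 RPKM in KO and 189 to 244 RPKM in WT. PPAR nuclear receptors with their partners and genes responsive to them gave 0 calls of 13 (2 at an unadjusted p under 0.05, 0 in voom, median -0.024). The most abundant of these was Cd36, at 621 to 991 RPKM in KO and 915 to 1252 RPKM in WT. Angptl4, which is responsive to these receptors in other tissues, was not on that list.

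Lipases bind to heparan sulfate chains on the vessel wall. Of the genes of these proteoglycans and of the enzymes that build the chains, 1 of 23 tested fell and 0 rose. Among all genes tested, 1.27% were called lower and 0.671% higher. At an unadjusted p under 0.05 were 2 of the 23, beside 15.7% of all genes tested, and the median log2 fold change was 0.031. Hs6st2, a heparan sulfate 6-O-sulfotransferase gene, was at 11.9, 6.70 and 14.5 RPKM in the KO libraries, against 22.2, 24.6 and 29.8 RPKM in the WT libraries (log2 fold change -1.23 ± 0.24 SE, adjusted p = 0.0357 in limma). Its call was lost without any library but KO 4 (adjusted p = 0.0564 without WT 1, 0.0752 without WT 3, 0.128 without WT 4, 0.0852 without KO 2 and 0.0621 without KO 3), and with low genes kept (0.168). The most abundant gene of the list was Ext2, a polymerase gene of these chains, at 76.0 to 80.3 RPKM in KO and 56.8 to 86.9 RPKM in WT.

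Over all 9 lists, with that of lipoprotein and fatty acid uptake, 4 of 101 distinct tested genes other than Pla1a were called, or 3.96%, beside 1.94% of all genes tested. Genotypes did not overlap for 18.8% of the 101, beside 20.3% of all genes tested. The count of calls was 0 without KO 3, 1 without WT 4, 2 without KO 2 and 2 with low genes kept.

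**Figure D3:**
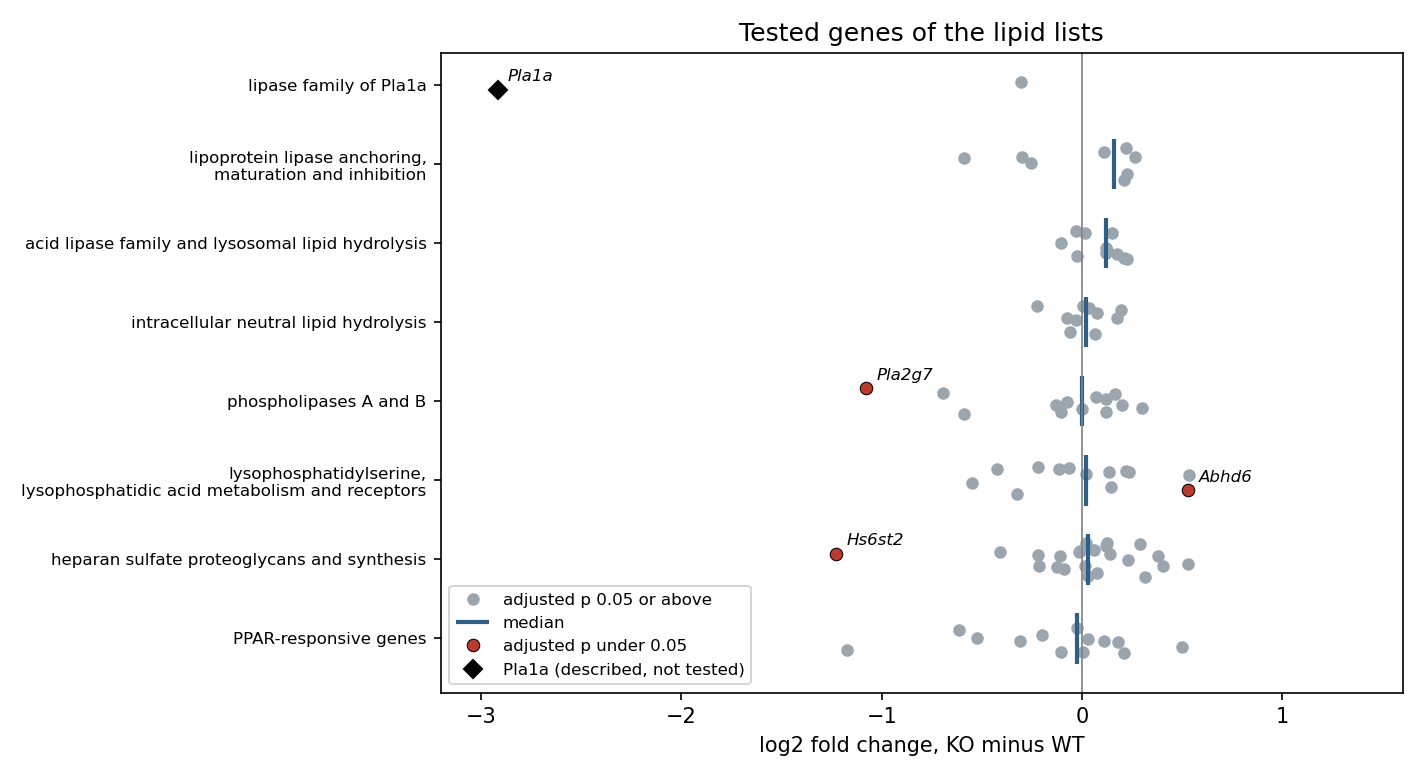
Log2 fold change, KO minus WT, of the tested genes in 8 lipid gene lists, one row per list. Red points have an adjusted p under 0.05 in limma (Abhd6, Pla2g7 and Hs6st2), grey points do not, blue bars are list medians where at least 3 genes were tested, and the black diamond is Pla1a at -2.92. List medians lie between -0.024 and 0.16.

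The genes beside Pla1a were read in the same fit, to see how far the difference extended along chromosome 16. Its nearest tested neighbours, Adprh and Popdc2, did not pass adjustment, though their unadjusted p in limma was 0.0102 and 0.0195. The libraries of Adprh did not overlap between genotypes. Within 1 Mb, 3 of 13 tested genes had an unadjusted p under 0.05, beside 15.7% of all genes tested. Genotypes did not overlap for 2 of the 13, beside 20.3% of all genes tested. Adprh, an ADP-ribosylarginine hydrolase gene whose 5′ end lies 19.5 kb from that of Pla1a, was at 170 ± 13.4 RPKM in KO and 137 ± 10.1 RPKM in WT (SD, n = 3 each, log2 fold change 0.31, adjusted p = 0.171), and Popdc2, on the other side, at 9.30 ± 3.61 RPKM in KO and 14.0 ± 1.25 RPKM in WT (log2 fold change -0.62, adjusted p = 0.221). Of the 13 tested genes within 1 Mb, 1 was called, B4galt4, a galactosyltransferase gene (38742220 to 38769054), which was at 23.7 ± 1.88 RPKM in KO and 15.2 ± 2.18 RPKM in WT (log2 fold change 0.63 ± 0.13 SE, adjusted p = 0.0488 in limma). That call was lost in 10 of 14 alternatives, over which its adjusted p ran from 0.0363 to 0.216, among them each single library left out other than WT 3. Within 5 Mb, 4 of 37 tested genes were called (10.8%), beside 6 of 312 on the whole chromosome (1.92%) and 1.94% of all genes tested. The other 3, named after their values were seen, were Slc15a2, a peptide transporter gene, higher in KO (2.25 RPKM in KO and 0.435 RPKM in WT, log2 fold change 1.65, adjusted p = 0.0303), and Gap43, a growth-associated protein gene, and Zbtb20, a transcription factor gene, both lower (-1.20 and -0.97, adjusted p = 0.0419 and 0.0328). No WT library had Slc15a2 above 0.660 RPKM, so it passed the filter on low values only because it was high in KO. Its call, 1 of the 4, therefore carries no weight in the count. It was lost in voom (adjusted p = 0.1855) and in limma with a pseudocount of 0.1 (adjusted p = 0.104). The count of 4 was 0 without KO 2 or KO 3, 1 without WT 1, 2 without WT 3, WT 4 or KO 4, and 0 with low genes kept.

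**Figure D4:**
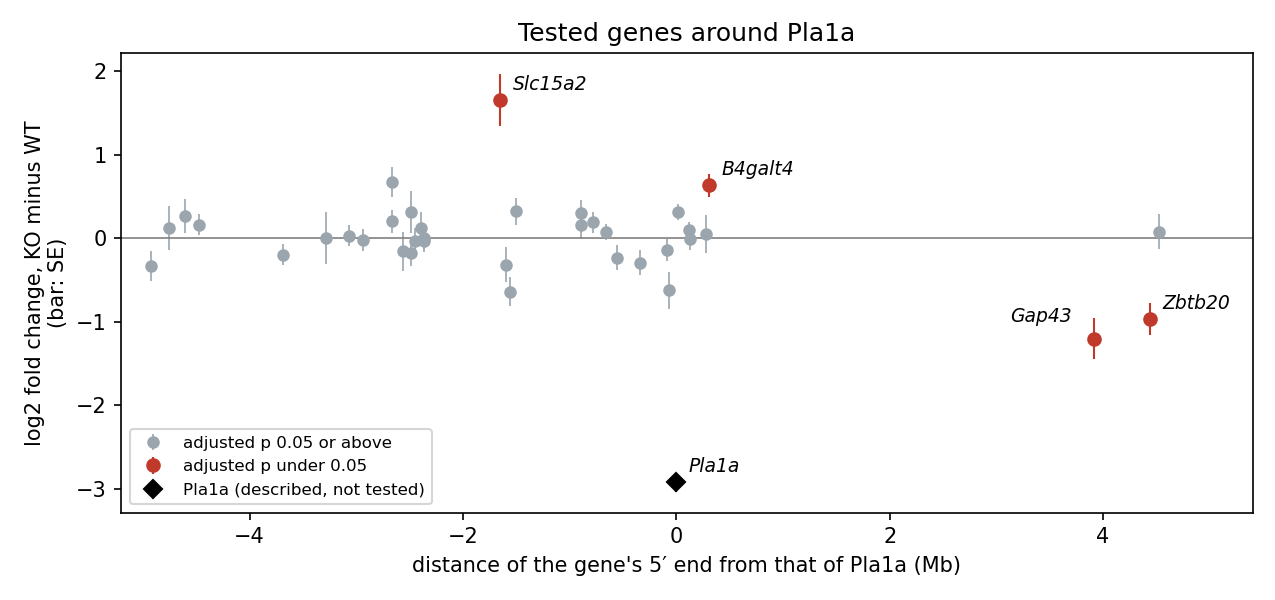
Log2 fold change, KO minus WT, with its SE, of tested genes within 5 Mb of Pla1a on chromosome 16, against the distance between the 5′ ends of the gene and of Pla1a in Mb. Red points have an adjusted p under 0.05 in limma, and the black diamond is Pla1a. The other tested genes within 1 Mb lie between -0.62 (Popdc2) and 0.63 (B4galt4). Those within 5 Mb lie between -1.20 (Gap43) and 1.65 (Slc15a2), while Pla1a is at -2.92.

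Genes whose levels ran most like those of Pla1a over the 6 libraries were found by Pearson correlation of log2(RPKM + 0.5). The 5 highest were Irak4, a signalling kinase of Toll-like receptors (r = 0.999), Lsr, the lipolysis-stimulated lipoprotein receptor (0.997), Rock1 (0.996), Ncoa4, the ferritin receptor of autophagy (0.995), and Prdx3, a mitochondrial peroxiredoxin (0.995). With 2 groups this far apart in Pla1a, such values describe genes that separate KO from WT with little spread within either, over points that share only 2 genotypes. Irak4 was at 1.99, 1.96 and 2.12 RPKM in the KO libraries, against 7.56, 8.04 and 8.12 RPKM in the WT libraries. Lsr, itself on the list of lipoprotein and fatty acid uptake, was at 3.54, 3.32 and 3.41 RPKM in KO, against 4.97, 4.96 and 5.11 RPKM in WT, and was not called (adjusted p = 0.155 in limma). The 5 lowest were Pnp2, Dok2, Cdk2, Ifi202b and Pgm1, with r from -0.997 to -0.993. Ncoa4, Pnp2 and Dok2 lie on chromosome 14 (start 32159879, 50956141 and 70765889), as does the deleted gene Stab1 (start 31139017). The part of their position in these correlations was not tested. Ncoa4 was under 1 RPKM in every KO library, and Pnp2 (up to 0.356 RPKM) and Ifi202b (0 RPKM) in every WT library. Ncoa4, Pnp2 and Ifi202b each passed the filter on low values only through the genotype where it was high. Of the other lipase genes, Angptl4 had an r of 0.60 with Pla1a, Lpl 0.36, Lipa -0.11, Gpihbp1 -0.34 and Lmf1 -0.69.

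**Figure D5:**
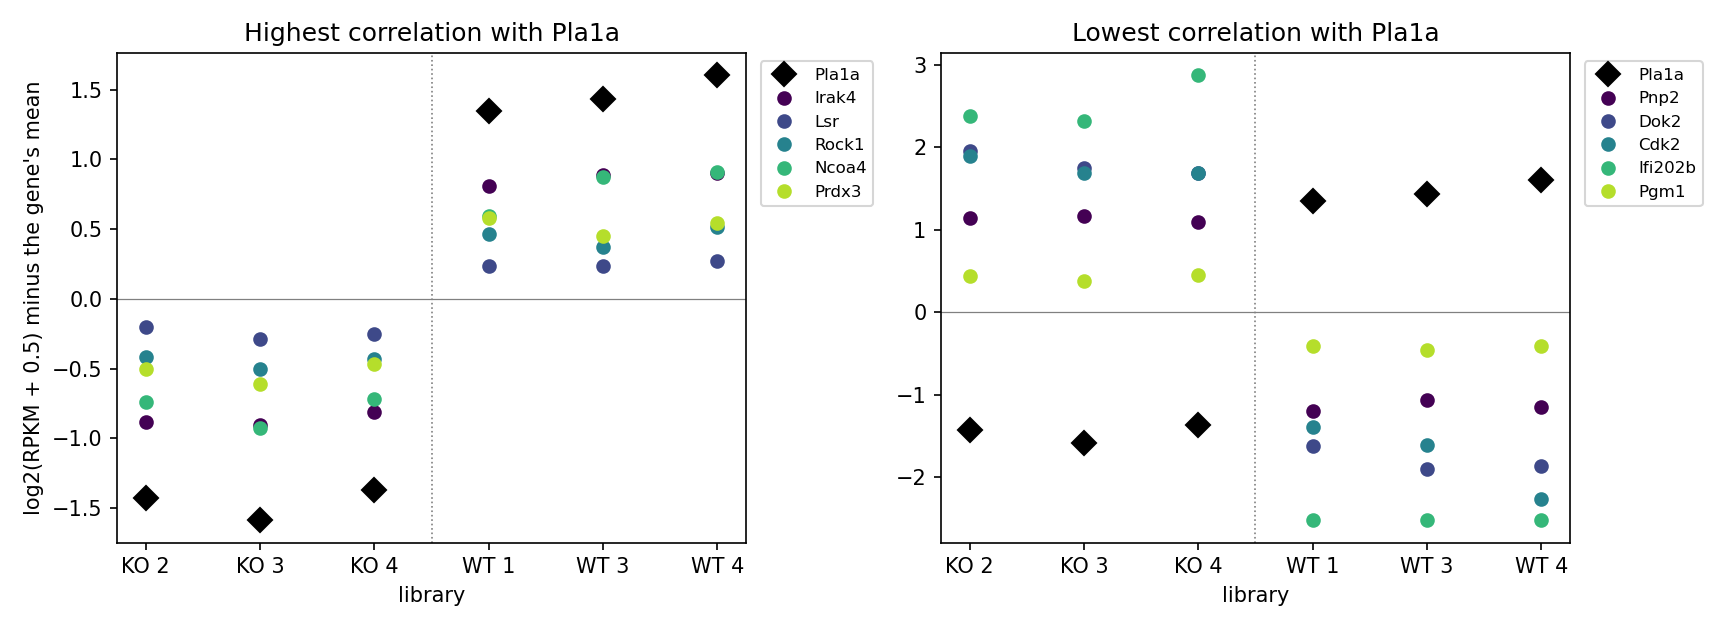
Log2(RPKM + 0.5) in each library minus the mean of the gene over the 6 libraries, for Pla1a (black diamonds) with the 5 genes of highest correlation (left) and of lowest correlation (right). KO libraries stand left of the dotted line and WT libraries right of it. In the left panel all genes are below 0 in KO and above 0 in WT, and in the right panel the 5 genes run the opposite way to Pla1a.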

How the data were processed

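RNA-seq libraries of sorted spleen endothelial cells, 3 KO and 3 WT, had been made with SMART-Seq v4 and Nextera XT, per the labels' protocols, a combination that does not mark strand. The submitters' processing notes name mm10 as the build and, as tools, limma, edgeR, Subread and STAR 2.5.2b, without role or order. The authors deposited RPKM for 23337 genes; the deposited comparison table holds the authors' mean RPKM, signed fold score, log2 fold change and p-value per gene, per the file headers. Column numbers do not match the labels' replicate numbers, so columns were assigned to genotypes only.

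Reads were recovered from the RPKM as whole numbers (99.972% of 17683 genes above 0, tolerance 0.001). The 11035 genes reaching 1 RPKM in 3 or more libraries were fitted as log2(RPKM + 0.5) with genotype as the only term (limma 3.58.1 under R 4.3.3, intensity trend, Benjamini-Hochberg, threshold 0.05), which understates changes of low genes; fold changes are KO minus WT. The fit was tested on simulated data. Recovered reads were tested with voom only. Genes and lists were chosen with earlier results of these data known. By rule, the text names the 9 genes, up to 4 called genes per list, each list's most abundant gene, neighbours of Pla1a, its 5 most and least similar genes, and called or most abundant markers where they bear on a result; other genes are named for their function, after their values were seen. Of 248 list entries, 246 were matched, 8 by older symbols or gene ID. Positions are from RefSeq and strands from GENCODE M21, both on GRCm38, the same build as mm10. The 14 alternatives were other pseudocounts, filters and scalings, each library left out, a replicate block and voom. Sets were described by counts, not tested; 1 called list gene is not reported here. Figures used matplotlib 3.10.9.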

Additional observations from a re-analysis of the deposited data

How the results depend on the processing

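With 3 libraries a group, the spread between libraries limits what can be seen. Under all 14 alternatives 0 of the 5 tested lipase and partner genes other than Pla1a passed (lowest adjusted p 0.188, for Lpl without WT 3; Lpl was not tested with the filter at 5 RPKM), and the log2 fold change of Pla1a ran from -2.99 to -2.85. Lipa and Gpihbp1, both near 0, changed sign: Lipa was at -0.017 with quantile normalization and at -0.016, -0.047 and -0.032 without WT 3, WT 4 and KO 2 (range with 1 library left out, -0.047 to 0.11), and Gpihbp1 at -0.021 without WT 1 (range -0.021 to 0.18) and -0.057 with the replicate block.

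The count of genes called, 214, was 77 with no filter on low values and 56 to 418 with 1 library left out (the lowest count lacking KO 3, the highest KO 4, and 93 and 83 lacking WT 4 and KO 2). List genes called, 4, were 2 with no filter and 0 to 5 with 1 library left out. Genes called within 5 Mb of Pla1a, 4, were 2 with a pseudocount of 0.1, 0 with no filter, 2 with the filter at 5 RPKM, 2 with quantile normalization, 2 in voom and 0 to 2 with 1 library left out. The causes were not tested. The columns' numbers 3 and 4 occur in both genotypes. Deviations from the group means correlated at 0.193 in both same-number pairs and at -0.162 to 0.094 in the other pairs of a KO and a WT library. What a shared number stands for is not given by the labels. With that number as a replicate block 355 genes were called. In that fit KO 2 and WT 1 each form a block of their own, so the genotype difference rests on KO 3, KO 4, WT 3 and WT 4.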
